A study of Mus musculus with 6 samples.

Results

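The genes described here encode the ligands, receptors and core inhibitors of TGF-beta and activin signaling. The list was written down by name and holds 10 genes, of 20660 genes that array probes could be matched to. They are the TGF-beta ligands Tgfb1, Tgfb2 and Tgfb3, the receptors Tgfbr1, Tgfbr2 and Tgfbr3, the activin subunits Inhba and Inhbb, and the inhibitors Fst and Smad7. RNA was measured on 6 one-color Agilent mouse expression arrays, 3 for E18.5 fetal mammary cells and 3 for adult basal mammary cells, all from C57Bl6J females. The fetal cells were taken at embryonic day 18.5 and gated on CD31-CD45-Ter119-EpCAM++CD49f+. The adult basal cells came from mice 8 to 12 weeks old and lay in the gate CD31-CD45-Ter119-BP-1-EpCAM+CD49f+, so that both gates removed endothelial and blood cells by surface markers and kept EpCAM and CD49f positive cells. Adult tissue was digested overnight and fetal tissue for a shorter time. The BP-1 depletion, which the paper gives as removing stromal cells, was applied to the adult cells only. Differences between these preparations and differences between the ages cannot be told apart. The labels call the 3 samples of each population biological replicates, and the number of mice behind each is not given in the sources used here.

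TGF-beta ligands are secreted in a latent form, held by matrix and cell surface proteins until integrins or proteases release them. The active ligand binds the type II receptor Tgfbr2, which recruits and phosphorylates the type I receptor Tgfbr1, and Tgfbr3 (betaglycan) presents ligand to this pair. Activins are dimers of Inhba or Inhbb chains and use their own type II and type I receptors, but both branches phosphorylate Smad2 and Smad3, which enter the nucleus with Smad4. Follistatin (Fst) captures activins outside the cell, and Smad7 blocks the type I receptors from inside it. In the mammary gland TGF-beta is known to restrain ductal growth, and activin B has been tied to ductal elongation and alveolar development.

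The 250 bases before the transcription start are shown for Inhbb, Inhba and Tgfbr2, since the paired activin chains Inhbb and Inhba differed in their pattern on the arrays and Tgfbr2 is the ligand-binding receptor of the TGF-beta branch. The sequences are from RefSeq on GRCm38.p6 and read 5′ to 3′ on the strand of the gene, at chr1:119422249-119422498 on the minus strand for Inhbb, chr13:16011601-16011850 on the plus strand for Inhba and chr9:116175364-116175613 on the minus strand for Tgfbr2. Capitals mark matches, on either strand, to the Smad-binding letters CAGAC, the GC box GGGCGG, the AP-1 site TGACTCA and the TATA box TATAAA.
Inhbb: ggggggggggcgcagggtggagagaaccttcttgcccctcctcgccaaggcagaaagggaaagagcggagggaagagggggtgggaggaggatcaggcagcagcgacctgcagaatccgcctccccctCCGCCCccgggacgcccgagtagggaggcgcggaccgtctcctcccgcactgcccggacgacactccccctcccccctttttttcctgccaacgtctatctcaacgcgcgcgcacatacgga
Inhba: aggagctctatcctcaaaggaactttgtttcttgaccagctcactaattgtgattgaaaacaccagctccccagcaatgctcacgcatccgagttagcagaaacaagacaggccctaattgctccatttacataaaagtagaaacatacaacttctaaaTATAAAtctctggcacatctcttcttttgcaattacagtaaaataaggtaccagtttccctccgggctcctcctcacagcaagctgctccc
Tgfbr2: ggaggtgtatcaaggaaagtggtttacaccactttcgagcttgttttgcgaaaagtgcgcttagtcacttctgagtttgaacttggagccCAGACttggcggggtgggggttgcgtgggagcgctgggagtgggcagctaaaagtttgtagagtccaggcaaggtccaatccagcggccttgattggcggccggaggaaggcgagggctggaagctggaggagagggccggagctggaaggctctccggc
The Inhbb window held 1 GC box, a G and C share of 68.0% and 21 CpG dinucleotides. The Inhba window held 1 TATA box, a G and C share of 43.2% and 3 CpG dinucleotides. The Tgfbr2 window held 1 CAGAC. Of 32851 promoter windows of this length, 42.2% held CAGAC, 32.7% GGGCGG, 4.46% TGACTCA and 12.4% TATAAA, and a match is only a run of letters. None of the marked matches overlapped another.

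All 13 probes of the 10 genes were well above background on all 6 arrays, and 3 genes (Tgfb2, Tgfbr1 and Tgfbr2) had more than 1 probe. Values are log2 processed signals after quantile normalization, and a difference is E18.5 fetal minus adult basal, the reverse of the contrast written in the study's R code. A probe was called where limma, fitted over 20440 probes, gave a Holm-adjusted p no higher than 0.05 together with a log2 difference of 1 or more in either direction. Of the 10 genes, 1 (Inhbb) rose and 1 (Tgfbr3) fell in fetal cells by this test, against 11.1% of all tested probes that passed in either direction, 5.92% higher in fetal and 5.18% higher in adult basal cells. With Benjamini-Hochberg adjustment in limma at the same fold limit, Tgfb3 and Tgfbr2 also passed, making 4 genes, against 30.0% of all tested probes in either direction. In 7 genes every adult basal array lay above every fetal array, in 1 gene (Inhbb) every fetal array lay above every adult basal array, and in 2 (Inhba and Fst) the populations overlapped. Of all tested probes, 69.1% had no overlap, 35.0% with adult basal higher and 34.1% with fetal higher. The median difference of the 10 genes was -0.70 on the log2 scale, and that of all tested probes was -0.03. In bulk sorted cells a lower signal from fewer cells of a type and a lower signal per cell cannot be told apart. Since 3 arrays faced 3, no exact permutation test on 1 gene can go below p = 0.1, and the adjusted p-values rest on the variance that limma shares across probes.

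**Figure D1:**
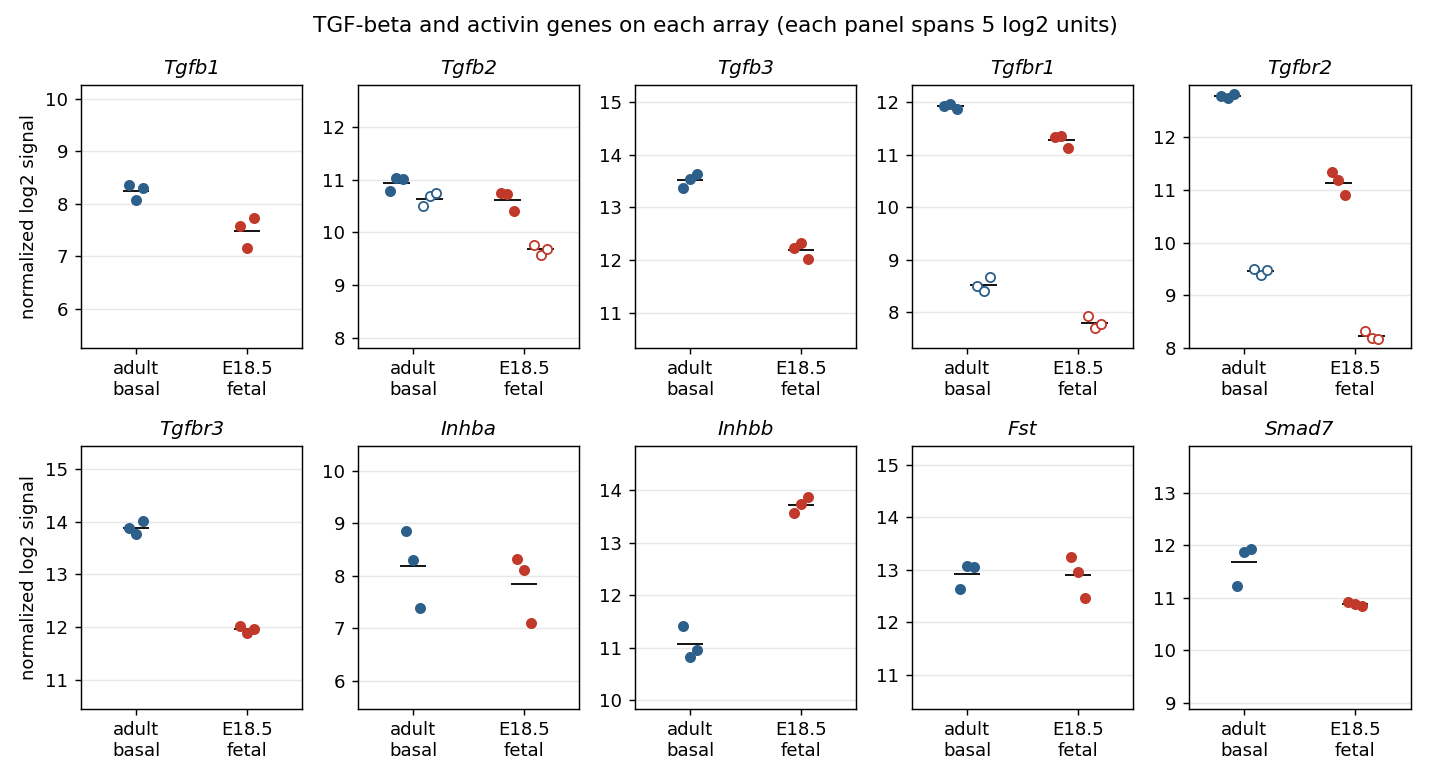
Normalized log2 signal of the 10 genes on each array, with adult basal in blue, E18.5 fetal in red, and a line at the mean of the 3 arrays. Filled points are the brightest probe of a gene and open points its other probe, and every panel has the same span, so that the opposite steps of Inhbb and Tgfbr3 can be compared with the overlapping points of Inhba and Fst.

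Among the TGF-beta ligands, all 3 genes read lower on every fetal array than on every adult basal array, and none passed the Holm test. Tgfb3, a ligand best known from palate closure and from mammary involution, gave the largest difference of these. Its normalized log2 signals were 12.22, 12.32 and 12.02 in fetal cells against 13.37, 13.55 and 13.64 in adult basal cells. The probe was printed as 10 spots on each array, which differed by an SD of at most 0.08, and the gap between the populations was far larger than the spread within either. The log2 fold change of Tgfb3 was -1.33 ± 0.12 (SE), a signal 2.52-fold lower in fetal cells (Holm-adjusted p = 0.19, Benjamini-Hochberg-adjusted p = 6.9e-05, limma). Within the arrays of the first and the second slide it was -1.29 and -1.38.

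Tgfb1, the ligand made by most cell types, platelets and macrophages among them, read 7.57, 7.16 and 7.73 in fetal and 8.37, 8.08 and 8.30 in adult basal cells. Tgfb1 differed by -0.76 ± 0.17 (SE) on the log2 scale, below the fold limit (Holm-adjusted p = 1, Benjamini-Hochberg-adjusted p = 0.0055, limma). The lowest adult basal array stood above the highest fetal array. Tgfb2, a ligand that depends on betaglycan for strong receptor binding, had 2 probes that differed in size of effect. Its brighter probe A_65_P10913 read 10.75, 10.73 and 10.40 in fetal against 10.79, 11.03 and 11.01 in adult basal cells, a log2 fold change of -0.32 ± 0.13 (SE, Holm-adjusted p = 1, limma). On this probe fetal replicate 1 and adult basal replicate 1 almost met. Its other probe A_51_P317640 read 9.76, 9.58 and 9.69 against 10.50, 10.69 and 10.75, a log2 fold change of -0.96 ± 0.11 (SE, Holm-adjusted p = 0.78, limma). Both probes were lower in fetal cells and neither passed.

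Every receptor probe read lower on each fetal array than on each adult basal array, and the log2 fold change was largest for Tgfbr3 and smallest for Tgfbr1. Tgfbr3, the co-receptor betaglycan, read 12.02, 11.89 and 11.96 in fetal and 13.88, 13.76 and 14.01 in adult basal cells. The arrays of a population lay within a narrow band, with means of 11.96 ± 0.07 and 13.89 ± 0.12 (SD, n = 3 each). Tgfbr3 fell by 1.93 on the log2 scale in fetal cells (SE 0.11, 95% interval -2.18 to -1.68), a signal 3.81-fold lower (Holm-adjusted p = 0.0062, limma). With the slide as a block the log2 fold change of Tgfbr3 was -1.88 (Holm-adjusted p = 0.028, limma), and within the first and the second slide it was -1.93 and -1.84. The Holm-adjusted p in limma rose to 0.080 without adult basal replicate 1 and to 0.10, 0.12 and 0.11 without fetal replicate 1, 2 and 3, and the call held on leaving out adult basal replicate 2 (0.011) or 3 (0.046). Its log2 fold change in these fits stayed between -1.99 and -1.87.

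Tgfbr2, the type II receptor that binds ligand first, was lower in fetal cells on both of its probes and just missed the Holm limit. Probe A_51_P450573 read 11.34, 11.19 and 10.90 in fetal and 12.80, 12.74 and 12.84 in adult basal cells. The adult basal arrays agreed to an SD of 0.05 and the fetal arrays to an SD of 0.22. The log2 fold change of this Tgfbr2 probe was -1.65 ± 0.13 (SE), a signal 3.13-fold lower (Holm-adjusted p = 0.074, Benjamini-Hochberg-adjusted p = 3.4e-05, limma). Probe A_55_P2107288 gave -1.23 ± 0.10 (SE, Holm-adjusted p = 0.075, limma). Tgfbr1, the type I receptor kinase that phosphorylates Smad2 and Smad3, read 11.33, 11.36 and 11.13 in fetal and 11.93, 11.96 and 11.86 in adult basal cells on its brighter probe. The log2 fold changes of its probes A_55_P2137206 and A_55_P2137211 were -0.64 ± 0.11 and -0.72 ± 0.12 (SE), both under the fold limit (Holm-adjusted p = 1 for each, limma). Its populations did not overlap on either probe.

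**Figure D2:**
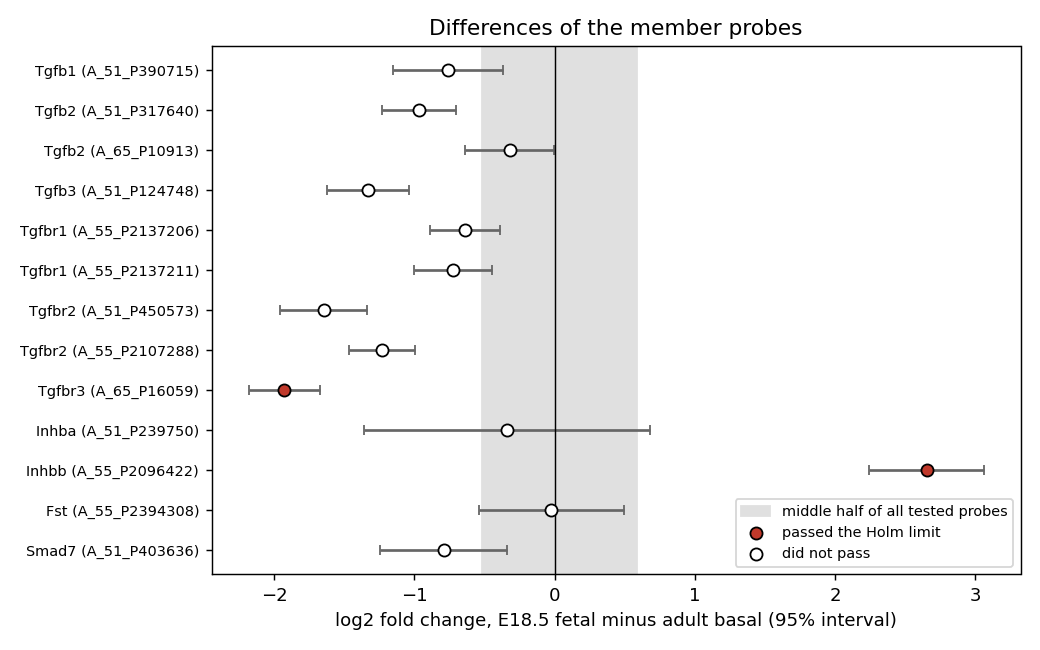
Log2 fold change, E18.5 fetal minus adult basal, of each of the 13 probes with its 95% interval, red where the probe passed the Holm limit. The gray band runs between the quartiles of all 20440 tested probes, -0.52 and 0.59. Inhbb stands to the right of it at 2.65, and the Tgfb2 probe A_51_P317640, Tgfb3, both Tgfbr2 probes and Tgfbr3 stand to its left with their whole intervals.

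The activin subunits parted. Inhbb, the chain of activin B, which also joins the alpha chain Inha to make inhibin B, read 13.56, 13.73 and 13.86 in fetal and 11.42, 10.83 and 10.95 in adult basal cells. All fetal arrays lay above all adult basal arrays, with means of 13.72 ± 0.15 and 11.06 ± 0.31 (SD, n = 3 each). Inhbb rose by 2.65 on the log2 scale in fetal cells (SE 0.17, 95% interval 2.25 to 3.06), a signal 6.29-fold higher (Holm-adjusted p = 0.018, limma). Within the first and the second slide the log2 fold change of Inhbb was 2.38 and 2.97. With the slide as a block the log2 fold change of Inhbb was 2.67 and the call was lost (Holm-adjusted p = 0.099, limma). The Holm-adjusted p in limma was also above the limit when adult basal replicate 3 (0.17) or fetal replicate 1 (0.19), 2 (0.27) or 3 (0.21) was left out, and within it on leaving out adult basal replicate 1 (0.012) or 2 (0.044). Its log2 fold change in these fits stayed between 2.53 and 2.83.

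Inhba, the chain of activin A, showed no such step. It read 8.32, 8.10 and 7.09 in fetal and 8.85, 8.29 and 7.39 in adult basal cells. The populations overlapped, and replicate 3 was the lowest array of both. The log2 fold change of Inhba was -0.34 ± 0.43 (SE, 95% interval -1.36 to 0.68, Holm-adjusted p = 1, limma), so that differences within that interval could not be told from the spread between arrays. Within the first and the second slide the Inhba difference was 0.20 and -0.70. The SDs of Inhba were 0.65 and 0.74, against median SDs over all tested probes of 0.12 and 0.18 in fetal and adult basal cells.

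Among the inhibitors, Fst, which encodes the activin-binding protein follistatin, read 13.25, 12.96 and 12.47 in fetal and 12.63, 13.07 and 13.05 in adult basal cells. The populations overlapped, with the highest and the lowest array both fetal. The log2 fold change of Fst was -0.02 ± 0.22 (SE, 95% interval -0.54 to 0.49, Holm-adjusted p = 1, limma), and within the first and the second slide the difference was 0.41 and -0.35. Smad7, the inhibitory Smad that TGF-beta itself induces, read 10.91, 10.89 and 10.85 in fetal and 11.22, 11.88 and 11.93 in adult basal cells. The fetal arrays were nearly identical and adult basal replicate 1 lay nearest to them. The log2 fold change of Smad7 was -0.79 ± 0.19 (SE, Holm-adjusted p = 1, Benjamini-Hochberg-adjusted p = 0.0091, limma), under the fold limit.

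A wider list of the pathway held 55 other genes, of which 54 were on the array and 51 were tested. Of these, 1 rose and 9 fell in fetal cells by the Holm test and 41 did not pass, with a median log2 fold change of -0.35. The share of all tested probes that passed was 11.1% in either direction, 5.92% for fetal higher and 5.18% for adult basal higher. With Benjamini-Hochberg adjustment 4 of the 51 rose and 13 fell, beside 30.0% of all tested probes in either direction. The 10 calls by Holm included 3 of 11 latency and activation genes, 2 of 4 extracellular antagonists, 1 of 6 negative feedback genes and 4 of 7 response genes, and none of 6 other ligands, 8 other receptors and 9 Smads and cofactors, although a probe of Acvr1c that did not represent its gene passed. In those last groups 2, 5 and 4 genes had an unadjusted p under 0.05 in limma, and 0, 2 and 0 passed with Benjamini-Hochberg adjustment. No share of all tested probes is given for the unadjusted limit, so that nothing is concluded from those counts. On leaving out fetal replicate 1, 2 or 3, the number of genes passing was 4, 5 or 6, and on leaving out adult basal replicate 1, 2 or 3 it was 9, 9 or 7. Ltbp2, Lrrc32, Ccn2 and Cdkn2b passed in each of the 17 alternative fits. The calls of Itgav, Pmepa1 and Snai2 were lost on leaving out any fetal array, that of Fstl3 on leaving out fetal replicate 1 or 2 and that of Dcn on leaving out fetal replicate 1, and those of Itgav and Snai2 also on leaving out adult basal replicate 3 (Itgav also replicate 1). Over the alternatives their highest Holm-adjusted p in limma was 0.22 for Itgav, 0.083 for Pmepa1, 0.12 for Snai2, 0.13 for Fstl3 and 0.053 for Dcn.

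In the group for latency and activation, Ltbp2, a matrix protein that belongs to the latent TGF-beta binding protein family but is known not to bind latent TGF-beta itself, read 10.67, 10.50 and 10.20 in fetal and 15.07, 15.23 and 15.13 in adult basal cells. This was the largest step of its group, a log2 fold change of -4.69 ± 0.14 (SE), 25.8-fold lower in fetal cells (Holm-adjusted p = 7.2e-05, limma). Lrrc32 (GARP), which anchors latent TGF-beta at the cell surface, read 8.86, 8.70 and 8.89 in fetal and 12.64, 13.17 and 12.45 in adult basal cells and fell by 3.94, 15.4-fold (Holm-adjusted p = 0.0021, limma). Itgav, the alpha V integrin chain of receptors that release the ligand, fell by 1.87 (Holm-adjusted p = 0.013, limma). Its partner chains Itgb6 and Itgb8 gave log2 fold changes of 0.63 and 1.01 and did not pass, nor did Ltbp1 at 2.85 ± 0.29 (SE, Holm-adjusted p = 0.36, limma). Ltbp1 read 12.79, 12.89 and 12.44 in fetal against 10.52, 9.69 and 9.35 in adult basal cells, so that its arrays did not overlap and its adult basal arrays were spread.

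The genes listed as extracellular antagonists, of which Fbn1 is a matrix protein rather than an antagonist, all read lower in fetal cells. Fstl3, a follistatin relative that binds activins, read 7.97, 8.09 and 8.44 in fetal and 11.29, 11.62 and 11.97 in adult basal cells and fell by 3.46 (Holm-adjusted p = 0.0078, limma), beside the overlap seen for Fst. Dcn (decorin), a matrix proteoglycan that binds TGF-beta, fell by 3.78 (Holm-adjusted p = 0.0023, limma). Bgn and Fbn1 did not pass, at -0.48 and -0.59.

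The other ligands and receptors of the pathway held no call on their brightest probes. Inha, which pairs with Inhbb in inhibin B, was at 0.65, Gdf11 at 0.88 and Nodal at -0.07 on the scale of log2 fold change. Of the activin receptors, the type I receptor Acvr1b was at -1.02 ± 0.11 (SE, Holm-adjusted p = 0.50, limma) and the type II receptors Acvr2a and Acvr2b at -0.86 and 0.69. Acvr1c (ALK7), a type I receptor used by activin B, was well above background on every fetal array and on no adult basal array. Its probe A_55_P2064203, which represented the gene by its mean over the 6 arrays, was at least 4.55-fold higher in fetal cells and did not pass (Holm-adjusted p = 1, limma), with fetal readings of 5.33, 7.24 and 5.58. Its other probe A_55_P1975140, with a fetal mean of 6.11 ± 0.12 (SD, n = 3), was at least 5.05-fold higher and passed (Holm-adjusted p = 4e-05, limma). Both probes came through the low-signal filter by their fetal signals alone. The p-values compare these with adult basal signals not well above background, so that no conclusion is drawn from them. These bounds set the fetal mean against a mean over the adult basal arrays of, on each, the lowest signal well above background or the probe's own signal, whichever was higher. The fetal means of the probes were 6.05 and 6.11, so that the order that chose the first came from adult basal signals not well above background.

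None of the Smads that carry the signal passed the test. Their log2 fold changes were 0.80 for Smad2, -0.52 for Smad3 and -0.17 for Smad4. Among the feedback inhibitors, Pmepa1, a TGF-beta-induced membrane protein that sequesters Smad2 and Smad3, fell by 2.12 (Holm-adjusted p = 0.0043, limma) with 11.17, 11.12 and 10.98 in fetal and 13.35, 13.10 and 13.19 in adult basal cells. The other genes of this group, among them the inhibitory Smad6 at -1.38, the phosphatase Ppm1a at -1.27 and the ubiquitin ligase Smurf2 at -0.85, did not pass.

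Of the response genes, which TGF-beta is known to induce in epithelial or mesenchymal cells, Ccn2 (connective tissue growth factor) read 14.31, 14.42 and 14.18 in fetal and 17.03, 17.29 and 17.36 in adult basal cells. It fell by 2.92, 7.58-fold (Holm-adjusted p = 0.0011, limma). Snai2 (Slug), a transcription factor of the basal mammary lineage, fell by 2.50 (Holm-adjusted p = 0.0064, limma). Cdkn1a and Cdkn2b, cell cycle inhibitors that TGF-beta induces in epithelial cells, went opposite ways. Cdkn1a fell by 2.13 (Holm-adjusted p = 0.019, limma), a call that was lost whenever any 1 of the 6 arrays was left out (Holm-adjusted p up to 0.27, limma). Cdkn2b rose by 3.40, 10.5-fold (Holm-adjusted p = 0.00089, limma), with 10.33, 10.17 and 10.18 in fetal and 6.77, 7.10 and 6.61 in adult basal cells. Tgfbi, at -1.45, did not pass (Holm-adjusted p = 1, limma).

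**Figure D3:**
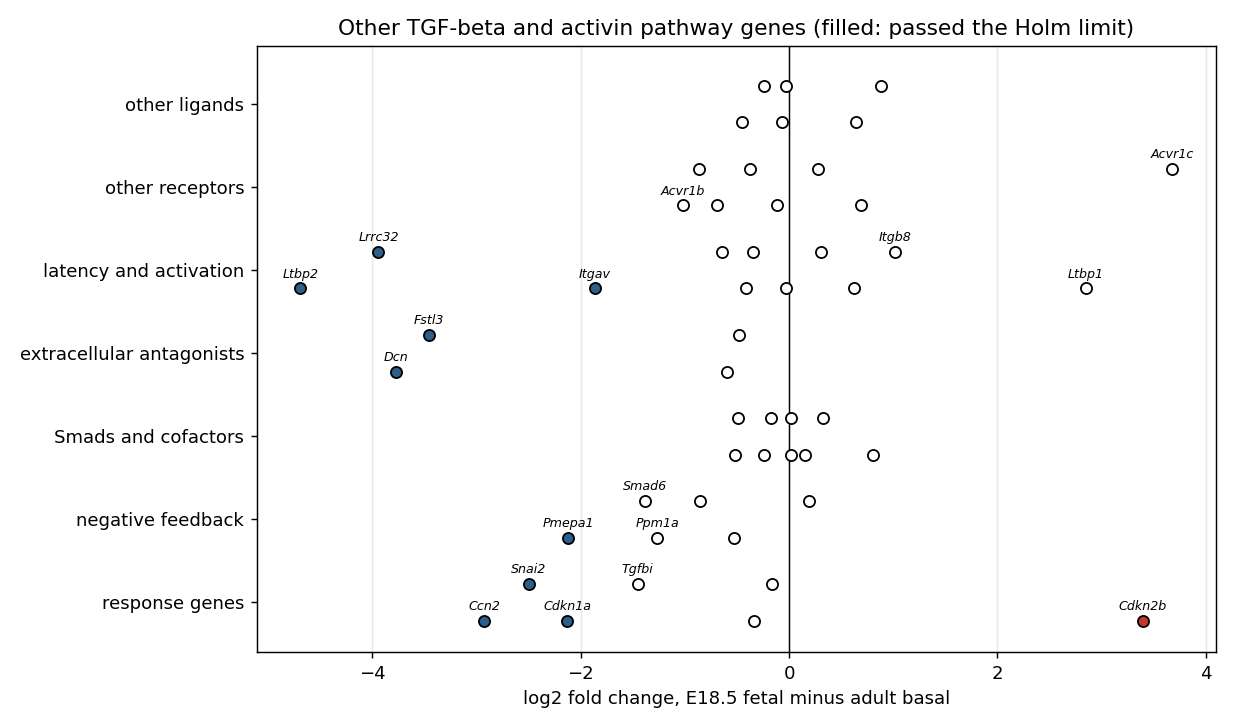
Log2 fold change, E18.5 fetal minus adult basal, of the 51 tested pathway genes other than the 10 described first, in rows by role, on the brightest probe of each. Filled points passed the Holm limit, blue for lower and red for higher in fetal cells, and 9 of the 10 filled points lie to the left of 0.

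Markers of the cell types that the sorts could hold were read as well, and their lists did not all differ in the same direction. The means given here for a marker list cover all of its genes on the array, tested or not. Of 9 tested basal and myoepithelial markers, 7 fell in fetal cells by Holm, against 5.18% of all tested probes. The mean log2 signal of the list was 11.6, 11.5 and 11.3 on the fetal and 15.6, 15.4 and 15.7 on the adult basal arrays. Acta2 was the brightest of them and Myh11, a smooth muscle myosin of myoepithelial cells, was at a log2 fold change of -8.63. Both populations carried the basal lineage factor Trp63, whose brightest probe A_55_P2161055 was at -0.08 and whose other probe A_51_P216550, matched to another transcript, was at -3.06 and passed. Of 10 luminal markers, 4 rose in fetal cells (Elf5, Foxa1, Kit and Pgr), against 5.92% of all tested probes, and none fell by Holm. Prlr was at -0.35 on its brightest probe, while its other probe A_66_P139387 was at 1.85 and passed (Holm-adjusted p = 0.026, limma). With Benjamini-Hochberg adjustment in limma Krt19, at -1.22, and Esr1 passed as lower in fetal cells. Myh11 and Esr1 came through the low-signal filter by their adult basal signals alone, and Elf5 by its fetal signals alone. No conclusion is drawn from the tests of these genes. The tested Esr1 probe A_52_P237077 was well above background on only 1 of 3 fetal arrays, so that the size of its difference is not given, and the other Esr1 probes, removed by the low-signal filter, also read lower on every fetal array. The list's mean was 11.7, 11.8 and 11.4 on the fetal and 10.1, 9.84 and 10.1 on the adult basal arrays, with Krt18 the brightest. Basal and luminal marker signal was thus present in both populations, with Krt18 means of 16.9 in fetal and 16.4 in adult basal cells. The part of this makeup in the differences of Inhbb, Tgfbr2, Tgfbr3 and Tgfb3 was not tested.

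The fibroblast, leukocyte, endothelial and platelet list means were higher on every adult basal array than on every fetal array. The pericyte list lay the other way round, although Notch3 alone of its tested genes read higher in fetal cells, and the adipocyte list overlapped. Of all tested probes, 11.1% passed by Holm and 30.0% with Benjamini-Hochberg adjustment in limma, in either direction. In 35.0% of them every adult basal array was higher. For the counts by unadjusted p below, no such share is given. Of 9 tested fibroblast markers, 2 fell in fetal cells (Pdgfrb and Dcn), with list means of 8.21, 8.33 and 8.61 against 9.65, 9.92 and 10.2, and Col1a2 the brightest. In 8 of them every adult basal array was higher, against 35.0% of all tested probes, and 8 had an unadjusted p under 0.05 in limma. With Benjamini-Hochberg adjustment 4 passed, against 30.0% of all tested probes in either direction. These added Lum at -1.05 and Thy1 at -1.62 to those named, while Col1a1 was at a log2 fold change of -0.01. Dcn and Fbn1 stand on this list and on that of the antagonists. None of 9 leukocyte markers passed the Holm test in limma, and in 6 of them the populations overlapped. An unadjusted p under 0.05 was reached by 3, and 2 passed with Benjamini-Hochberg adjustment, against 30.0% of all tested probes. The means of that list were 8.97, 8.89 and 8.99 against 9.40, 9.42 and 9.81, and Itgam was the brightest. Adgre1 was at -0.42 on its brightest probe. Its other probe A_55_P2144386 read 6.63, 6.12 and 8.71 in adult basal cells and was well above background on no fetal array. That probe came through the low-signal filter by its adult basal signals alone, so that no test of it is given. Tyrobp and the platelet gene Pf4 were highest on adult basal replicate 3, with 9.64 for Tyrobp and 11.99 for Pf4. Both were also higher on the other adult basal arrays than on every fetal array, with 10.26 and 10.01 for Pf4 against 7.47 at most. Tgfb1, a ligand that platelets and macrophages carry, read 8.30 on adult basal replicate 3. A link between these signals was not tested. None of 6 tested endothelial markers passed by Holm in limma (4 by unadjusted p and 4 with Benjamini-Hochberg adjustment), and the list mean was 5.54, 5.87 and 6.60 against 7.51, 7.57 and 7.88, with Kdr the brightest and Tek and Tie1 well above background on no fetal array. None of 2 tested platelet markers passed by Holm in limma (2 by unadjusted p and 1 with Benjamini-Hochberg adjustment), with a list mean of 5.20, 4.43 and 4.70 against 6.23, 5.97 and 7.08. Of 4 tested pericyte markers, Notch3, the brightest, rose in fetal cells by Holm, while Rgs5, at -2.22, passed as lower with Benjamini-Hochberg adjustment in limma and Abcc9, at -0.33, and Cspg4, at -0.07, did not pass. Kcnj8 was removed by the low-signal filter and was well above background on no array, and the pericyte list mean was 6.84, 6.88 and 6.85 against 6.52, 6.57 and 6.65. Of 4 tested epidermal markers, Krt10, the brightest, rose in fetal cells by Holm and 3 with Benjamini-Hochberg adjustment, with a list mean of 7.75, 7.37 and 7.47 against 5.67, 6.23 and 5.08. None of 4 adipocyte markers passed by Holm in limma (2 by unadjusted p and 0 with Benjamini-Hochberg adjustment), with Fabp4 the brightest and a list mean of 7.49, 6.98 and 8.62 against 7.42, 7.52 and 7.38. Pdgfrb, Lyz2, Tyrobp, Cdh5, Emcn, Esam, Rgs5 and Itga2b came through the low-signal filter by their adult basal signals alone. Krt1, Krtdap and Adipoq came through it by their fetal signals alone. No conclusion is drawn from the tests of these genes or from the counts that hold them. The part of these cell types in the lower fetal signals of Tgfb1, Tgfbr2, Dcn and Ccn2 was not tested.

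**Figure D4:**
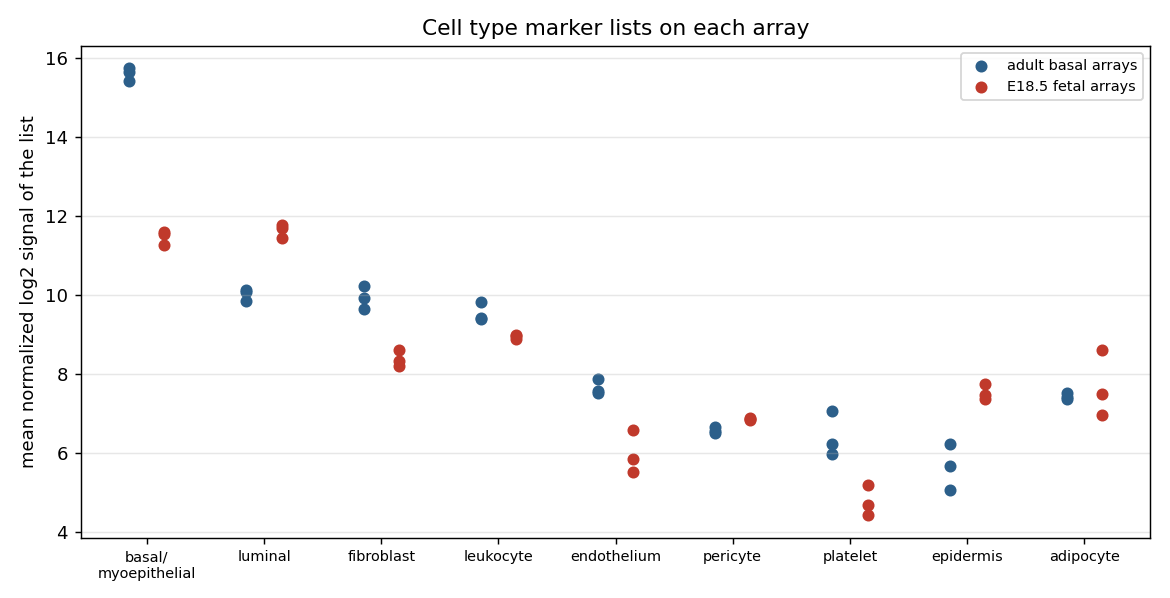
Mean normalized log2 signal of 9 cell type marker lists on each array, adult basal in blue and E18.5 fetal in red. The basal and myoepithelial list separates the populations most, with 15.4 to 15.7 in adult basal against 11.3 to 11.6 in fetal cells, and the luminal list lies the other way round. The lists hold different probes, so that heights are compared within a list only.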

How the data were processed

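The deposited files were Agilent scanner outputs of 6 one-color arrays (59305 spots each, no saturated spots, 76.4% to 83.3% of probes well above background). The intensities used were processed signals, which the authors obtained with Agilent Feature Extraction version 11.0.1.1 (per the submitters' processing notes), background-subtracted and not normalized between arrays. The authors' deposited log2 values (medians near 7.11, r = 0.9999 with each array's own scanner values) served as an alternative.

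Control spots and outlier spots (104 to 326 per array) were removed, log2 signals of a probe averaged, and 27235 of 55681 probes named through their accession with RefSeq, since the scanner files used here carry no gene name column. Values were quantile normalized, probes low in both populations removed by k-means (3 clusters, 100 starts, seed 1), and 20440 probes tested with limma 3.58.1 in R 4.3.3. A call needed a Holm-adjusted p no higher than 0.05 together with a log2 difference of 1 or more in either direction. A gene was represented by its brightest probe that passed the filter. The named genes were the 10 listed genes with every probe and, from the pathway lists, genes that were called or needed to describe their group.

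The genes and lists were chosen with earlier results of these data known. The number of arrays limits the precision. The slides, of which there were 2, held adult basal 1 and 3 with fetal 1, and adult basal 2 with fetal 2 and 3. The fit was tested on simulated data, where 171 of 200 probes changed 4-fold were recovered among 20440. The simulated noise was independent between arrays and had no slide effect. The share recovered therefore does not carry over to smaller changes or to the arrays themselves. Alternatives changed normalization, background correction, offset, filter, adjustment, variance estimation, blocks and arrays. Promoter windows of Tgfb1, Tgfb2, Tgfbr1, Tgfbr2, Inhba and Inhbb were matched by symbol. Of the listed pathway genes, 1 is not reported here.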

Additional observations from a re-analysis of the deposited data

How the results depend on the processing

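Of 221 values of the 13 probes (17 alternatives each), 192 kept their direction and their side of the limit, 12 lost a call, 11 gained one and 6 turned direction, and 3 of the gains came from judging the same fit by Benjamini-Hochberg in place of Holm. The turned values were those of the overlapping genes, Fst at 0.055 with normexp background correction, 0.029 with the slide as a block, and above 0 on leaving out adult basal replicate 2 (0.051) or 3 (0.045) or fetal replicate 3 (0.19), and Inhba on leaving out fetal replicate 3 (0.034). With 1 array left out, Fst ranged from -0.20 to 0.19, Inhba from -0.73 to 0.034 and the Tgfb2 probe A_65_P10913 from -0.40 to -0.21. The cause was not tested. Inhbb lost its call in 7 of 17 alternatives, with log2 fold changes from 2.53 to 2.83, and Tgfbr3 in 5, with log2 fold changes no higher than -1.87. The brighter Tgfbr2 probe gained a call in 5 and Tgfb3 in 3.

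The count of the 10 genes that passed was 2, and was 4 with normexp background correction, 4 with trended and robust variance estimation, 4 with Benjamini-Hochberg adjustment, 3 with normalization to the 75th percentile, 3 with an offset of 16 before log2, 3 with the mean of the probes of a gene, 1 with no low-signal filter (more probes adjusted over, 27222), 1 with the slide as a block, and 0 to 2 with 1 array left out. The count over all tested probes was 2269 of 20440, and was 2655 of 15731 with normexp, 3354 with trended and robust variance estimation, 2936 of 17883 with the offset, 2436 of 20436 with the 75th percentile, 1898 of 15726 genes with the mean of the probes, 1540 with the slide as a block, 1181 with no low-signal filter, 6130 with Benjamini-Hochberg adjustment and 946 to 1983 with 1 array left out, where fewer arrays entered. The other pathway genes gave 10 calls, 6 with no low-signal filter and 17 with Benjamini-Hochberg adjustment (4 higher and 13 lower in fetal cells).

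Replicate numbers are shared between the populations. Over all tested probes, deviations of same-numbered arrays from their group means correlated at -0.03, 0.09 and 0.05. Such values cannot exclude a pairing by number. The share of probes well above background fell from replicate 1 to 3 in both populations. Inhba signals fell in the same order in both, and with a replicate block the SE of Inhba was 0.13, against 0.43 without it. With a replicate block, 1302 probes, 0 of the 10 genes and 6 of the other pathway genes passed by Holm in limma (Inhbb adjusted p = 0.16, Tgfbr3 0.083).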

Other observations

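Of 18 genes of the pathway with several tested probes, 1 had probes that differed in sign (Ltbp3, at -0.35 and 0.08 on the log2 scale) and 5 had probes more than 0.5 apart (Acvr1c, Cdkn2b, Nedd4l, Tgfb2 and Tgif2). For Cdkn2b both probes were higher in fetal cells, at 3.40 and 2.11, and the weaker one missed the limit (Holm-adjusted p = 0.057, limma). Itgav and Pmepa1 had second probes at -2.10 and -2.14. These names were chosen after their values were seen.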
